A study of Homo sapiens with 16 samples.

Results

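The comparison described here sets p53 siRNA+nutlin against CTR siRNA+nutlin in HCT116 cells, a colon cancer line labelled as carrying wild type p53. It holds 4 of the 16 libraries of the study, 2 in each group, chosen by their sample titles. Both groups were given an siRNA for 3 days and then Nutlin-3 for 0.5 days more. They differed only in the siRNA, which was against p53 in one group and a control (CTR) in the other. Another 2 pairs of groups serve for contrast. They are p53 siRNA and CTR siRNA without nutlin, and p53+iASPP siRNA+nutlin and iASPP siRNA+nutlin, in which iASPP, an inhibitory partner of p53 encoded by PPP1R13L, was also silenced. Messenger RNA was sequenced, and the values are FPKM, fragments scaled to gene length and library size, as deposited. The labels do not say that replicates came from separate cultures. The p-values rest on the spread between replicates alone, pooled over all 16 libraries and 8 groups of the study, and that spread may be technical.

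Nutlin-3 blocks the binding of p53 to MDM2, the ubiquitin ligase that marks p53 for destruction, so that p53 accumulates without DNA damage. p53 then binds response elements and switches on genes of growth arrest, apoptosis, DNA repair, metabolism and secretion, among them MDM2 itself. The arrest gene CDKN1A encodes p21, which inhibits cyclin-dependent kinases. RB proteins and the DREAM complex then hold E2F genes and mitotic genes off, and mitotic genes carry a promoter element called CHR. The comparison asks which transcripts of nutlin-treated cells depend on p53.

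Epithelial markers were present in both groups. Of 13 colon epithelial markers 9 were at 1 FPKM or more in every one of the 4 libraries, while LGALS4 and CDX1 were at 0 in all 4. The 13 summed to 3232 and 3255 FPKM with p53 siRNA+nutlin and to 5681 and 5806 FPKM with CTR siRNA+nutlin. Much of that gap lay in the abundant keratins KRT19 and KRT8, given below. Across the 9 markers tested the median log2 difference between the groups was 0.11. No fibroblast or endothelial marker reached 1 FPKM. The 10 leukocyte markers summed to 5.58 to 7.94 FPKM with p53 siRNA+nutlin and to 1.64 to 2.54 FPKM with CTR siRNA+nutlin. CD3E, CD3D and NKG7 were among those at 0 in all 4 libraries. Of the 10, 2 reached 1 FPKM in each p53 siRNA+nutlin library, which in replicate 1 were CD68 and LYZ. With CTR siRNA+nutlin 0 did in replicate 1 and 1 in replicate 2. The 1 leukocyte marker tested had a log2 difference of 1.11 and was not called. The replicates were unequal in spread. Among genes averaging at least 100 FPKM, the median absolute log2 ratio between replicates was 0.197 with p53 siRNA+nutlin, where 23 of 811 genes differed by more than 2-fold, and 0.0656 with CTR siRNA+nutlin, where 0 of 714 did. The other 2 nutlin groups, which both had iASPP silenced, also had a wide pair (0.178 and 0.259). Replicate 2 of each of these 3 wide pairs is left out of some counts below as the 3 libraries that stand apart. Leaving them out takes the widest replicate gaps out of the fit and leaves 1 library in each of those groups. Higher counts then follow in part from the removal itself. The 4 groups without nutlin had close pairs (0.0514 to 0.0668). Depth was estimated from the steps between low values, without counts. By that estimate replicate 2 was 6.50 times as deep as replicate 1 with p53 siRNA+nutlin and 4.44 times with CTR siRNA+nutlin. It was the deeper replicate in all 8 groups, by 4.26 to 6.50 times. It listed 15757 genes above 0 with p53 siRNA+nutlin, against 13658 in replicate 1, and 14979 against 13343 with CTR siRNA+nutlin. Most genes below are therefore shown by replicate, and lists are described with and without p53 siRNA+nutlin replicate 2. In most lists fewer genes were called when another of the 4 libraries was left out instead, also where those counts are not printed. The part of depth in the gap between these replicates was not tested.

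Differences below are means of log2(FPKM + 1) with p53 siRNA+nutlin minus those with CTR siRNA+nutlin, with the standard error (SE) from 1 limma fit over all 16 libraries and 8 group means. A gene is said to have risen or fallen where its p, adjusted over all 10662 genes tested by the Benjamini-Hochberg method, was under 0.05. By that rule 1833 genes rose and 564 fell, which is 17.2% and 5.29% of the genes tested, and 683 of the risen (6.41% of those tested) and 211 of the fallen (1.98%) changed at least 2-fold. In bulk RNA, fewer cells of a type and less of a transcript per cell cannot be told apart. The median difference of all genes was 0.19. When libraries were scaled to a common median ratio, that median moved to -0.0057 and the split became 1083 risen and 1011 fallen (10.2% and 9.48%). No gene named below as risen or fallen changed direction under that scaling, while uncalled genes with differences of at most 0.204 above 0 came to lie below it. Fitting the 4 libraries of this comparison alone gave 1033 risen and 350 fallen. Without p53 siRNA+nutlin replicate 2, 1628 rose and 531 fell. The counts were 938 and 328 without p53 siRNA+nutlin replicate 1, 834 and 262 without CTR siRNA+nutlin replicate 1, and 1066 and 291 without CTR siRNA+nutlin replicate 2. When the mean of each close pair of replicates was counted as 1 library, the median difference of all genes was 0.18 and nearly every call was lost. The calls thus rest on taking the close pairs as separate samples. That fit also takes its spread from the wide pairs alone, with fewer residual degrees of freedom. How much of the loss follows from this was not tested.

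PPP1R13L, not silenced in these 4 libraries, had 16.8 and 14.9 FPKM with p53 siRNA+nutlin, against 17.1 and 18.9 FPKM with CTR siRNA+nutlin and was not called (-0.17 ± 0.36, adjusted p = 0.767).

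Of 19 tested genes that regulate p53, 2 rose (10.5%) and 6 fell (31.6%), beside 17.2% and 5.29% of all genes, with a median difference of -0.024 beside 0.19 for all genes. MDM2 (chr12:68808176-68850686, GRCh38, as all gene positions below), the ligase and the target of nutlin, had 12.3 and 28.2 FPKM with p53 siRNA+nutlin, against 239 and 225 FPKM with CTR siRNA+nutlin. The groups did not overlap, and replicate 2 of p53 siRNA+nutlin stood above replicate 1. The difference was -3.56 ± 0.45 (SE, adjusted p = 0.000341). PPM1D, a phosphatase that shuts p53 signalling off, had 5.07 and 6.63 FPKM with p53 siRNA+nutlin, against 15.8 and 17.7 FPKM with CTR siRNA+nutlin, a difference of -1.38 ± 0.19 (SE, adjusted p = 0.000558). TRIAP1, a small p53-induced survival protein, had 52.9 and 49.04 FPKM with p53 siRNA+nutlin, against 120.2 and 107 FPKM with CTR siRNA+nutlin, a difference of -1.14 ± 0.11 (SE, adjusted p = 7.84e-05). PHLDA3, an inhibitor of AKT, fell as well (-1.65 ± 0.35, adjusted p = 0.00735). PHLDA3 was at an adjusted p of 0.0543 without p53 siRNA+nutlin replicate 1. The 2 that rose were TP73, which encodes a p53 relative, and CHEK2, a checkpoint kinase. TP73 had 2.09 and 1.47 FPKM with p53 siRNA+nutlin, against 0.546 and 0.551 FPKM with CTR siRNA+nutlin, a difference of 0.83 ± 0.19 (SE, adjusted p = 0.00979). CHEK2 had 19.7 and 12.1 FPKM with p53 siRNA+nutlin, against 8.26 and 8.86 FPKM with CTR siRNA+nutlin, a difference of 0.78 ± 0.19 (SE, adjusted p = 0.0124). TP73 was at an adjusted p of 0.0811 without p53 siRNA+nutlin replicate 1, 0.0592 without CTR siRNA+nutlin replicate 1 and 0.0509 without CTR siRNA+nutlin replicate 2. CHEK2 was at an adjusted p of 0.0879 without p53 siRNA+nutlin replicate 1 and 0.0831 without CTR siRNA+nutlin replicate 1. The smallest differences were those of PSME3, a proteasome activator, RFWD2, the ligase COP1, and RFFL, at -0.024 ± 0.12, 0.049 ± 0.19 and 0.0083 ± 0.41, and none of these 3 was called. Under median-ratio scaling 1 rose and 6 fell. 2 rose and 6 fell without p53 siRNA+nutlin replicate 2, 0 rose and 4 fell without p53 siRNA+nutlin replicate 1, 0 rose and 5 fell without CTR siRNA+nutlin replicate 1.

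Most known p53 targets fell. In 5 lists of targets, which hold 109 different genes that were tested, 79 fell, 7 rose and 23 were not called, with a median difference of -1.18. Among all genes 5.29% fell and 17.2% rose. The lists were written with earlier results of these data known, and the numbers describe them and are no test. Without p53 siRNA+nutlin replicate 2, 74 fell and 5 rose, against 54 and 4 without p53 siRNA+nutlin replicate 1, 52 and 3 without CTR siRNA+nutlin replicate 1, and 57 and 4 without CTR siRNA+nutlin replicate 2. Under median-ratio scaling 86 fell and 4 rose.

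Growth arrest targets held the largest fall among them after TP53I3. CDKN1A (chr6:36676460-36687339) had 47.4 and 107 FPKM with p53 siRNA+nutlin, against 1509.7 and 1577 FPKM with CTR siRNA+nutlin. The mean with p53 siRNA+nutlin was 5.00% of that with CTR siRNA+nutlin, and here too replicate 2 lay above replicate 1. The difference was -4.42 ± 0.38 (SE, adjusted p = 4.32e-05). BTG2, an antiproliferative factor that promotes mRNA decay, had 6.16 and 12.4 FPKM with p53 siRNA+nutlin, against 44.1 and 44.4 FPKM with CTR siRNA+nutlin, a difference of -2.21 ± 0.32 (SE, adjusted p = 0.000762). SFN, the 14-3-3 sigma protein that holds cells before mitosis, had 195 and 221 FPKM with p53 siRNA+nutlin, against 899 and 925 FPKM with CTR siRNA+nutlin, a difference of -2.13 ± 0.16 (SE, adjusted p = 2.88e-05). The SFN libraries were tight within each group, unlike CDKN1A and BTG2, whose p53 siRNA+nutlin replicates differed by about 2-fold. ZMAT3, an RNA-binding splicing regulator, fell too, with 0.620 and 1.62 FPKM with p53 siRNA+nutlin, against 6.59 and 7.11 FPKM with CTR siRNA+nutlin (-1.93 ± 0.27, adjusted p = 0.000665). Of 20 arrest genes tested 13 fell (65%) and 2 rose (10%), beside 5.29% and 17.2% of all genes. The 2 that rose were GTSE1 and KLF4. GTSE1, a mitotic gene that restrains p53, had 10.2 and 5.61 FPKM with p53 siRNA+nutlin, against 0.0718 and 0.194 FPKM with CTR siRNA+nutlin (2.93 ± 0.33, adjusted p = 0.000161), and KLF4, a zinc finger factor, had 10.9 and 12.7 FPKM with p53 siRNA+nutlin, against 7.53 and 7.71 FPKM with CTR siRNA+nutlin (0.57 ± 0.16, adjusted p = 0.0248). KLF4 was at an adjusted p of 0.114 without p53 siRNA+nutlin replicate 2, 0.118 without CTR siRNA+nutlin replicate 1 and 0.0909 without CTR siRNA+nutlin replicate 2. BTG1, CCNG2 and GADD45B showed the smallest differences and were not called, at 0.021 ± 0.42, 0.25 ± 0.33 and 0.31 ± 0.58. With p53 siRNA+nutlin replicate 2 left out, 1 rose and 14 fell.

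Of 22 apoptosis targets tested 18 fell (81.8%) and 0 rose, beside 5.29% and 17.2% of all genes, with a median of -1.05. TP53I3 (chr2:24077433-24085861), a quinone oxidoreductase, had 6.30 and 12.3 FPKM with p53 siRNA+nutlin, against 244 and 286 FPKM with CTR siRNA+nutlin, a difference of -4.75 ± 0.39 (SE, adjusted p = 3.36e-05). FAS, the death receptor, had 10.1 and 12.3 FPKM with p53 siRNA+nutlin, against 52.2 and 57.3 FPKM with CTR siRNA+nutlin, a difference of -2.20 ± 0.36 (SE, adjusted p = 0.00141). NINJ1, a membrane protein that ruptures dying cells, had 27.9 and 30.9 FPKM with p53 siRNA+nutlin, against 94.6 and 108 FPKM with CTR siRNA+nutlin, a difference of -1.75 ± 0.27 (SE, adjusted p = 0.00115). In all 3 genes the groups stood clear of each other and replicate 2 was the higher p53 siRNA+nutlin library. TP53INP1, which drives autophagy and death, had 0.766 and 2.27 FPKM with p53 siRNA+nutlin, against 10.2 and 10.5 FPKM with CTR siRNA+nutlin (-2.24 ± 0.38, adjusted p = 0.00186). The decoy receptor TNFRSF10C diverged most between replicates, with 0.297 and 4.79 FPKM with p53 siRNA+nutlin, against 15.7 and 16.4 FPKM with CTR siRNA+nutlin (-2.64 ± 0.57, adjusted p = 0.00769). PIDD1, the scaffold of caspase-2 activation, went the other way between replicates, with 1.75 and 1.30 FPKM with p53 siRNA+nutlin, against 6.08 and 5.75 FPKM with CTR siRNA+nutlin (-1.46 ± 0.25, adjusted p = 0.00213). BID, PERP and TNFAIP8 showed the smallest differences, -0.084 ± 0.23, -0.15 ± 0.12 and -0.21 ± 0.22, and were not called, with PERP, a desmosome protein, at 27.5 and 34.6 FPKM with p53 siRNA+nutlin, against 34.4 and 34.1 FPKM with CTR siRNA+nutlin. Fewer were called when any 1 of the 4 libraries was left out, and the loss was smallest for p53 siRNA+nutlin replicate 2.

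DNA repair targets fell in part. Of 13 tested 7 fell (53.8%) and 3 rose (23.1%), beside 5.29% and 17.2% of all genes, with a median of -1.04. The risen share lies near that of all genes. RRM2B, the p53-induced subunit of ribonucleotide reductase, had 8.61 and 22.4 FPKM with p53 siRNA+nutlin, against 57.2 and 60.6 FPKM with CTR siRNA+nutlin. The replicates of p53 siRNA+nutlin differed more than 2-fold and replicate 2 lay the nearer to CTR siRNA+nutlin. The difference was -2.00 ± 0.46 (SE, adjusted p = 0.0106). RRM2B was at an adjusted p of 0.101 without p53 siRNA+nutlin replicate 1, 0.0565 without CTR siRNA+nutlin replicate 1 and 0.0564 without CTR siRNA+nutlin replicate 2. RPS27L, a ribosomal protein variant, showed the same gap, with 16.3 and 53.02 FPKM with p53 siRNA+nutlin, against 97.9 and 99.2 FPKM with CTR siRNA+nutlin, and a difference of -1.70 ± 0.44 (SE, adjusted p = 0.0183). RPS27L was at an adjusted p of 0.132 without p53 siRNA+nutlin replicate 1, 0.0856 without CTR siRNA+nutlin replicate 1 and 0.0777 without CTR siRNA+nutlin replicate 2. GADD45A, a stress sensor, had equal replicates, with 59.3 and 59.4 FPKM with p53 siRNA+nutlin, against 150.1 and 135 FPKM with CTR siRNA+nutlin (-1.25 ± 0.25, adjusted p = 0.00527). The nucleotide excision repair gene XPC had 3.97 and 7.79 FPKM with p53 siRNA+nutlin, against 14.5 and 14.3 FPKM with CTR siRNA+nutlin (-1.22 ± 0.28, adjusted p = 0.0102), and the bypass polymerase POLH 3.73 and 3.17 FPKM with p53 siRNA+nutlin, against 11.9 and 13.9 FPKM with CTR siRNA+nutlin (-1.64 ± 0.37, adjusted p = 0.00957). XPC was at an adjusted p of 0.0929 without p53 siRNA+nutlin replicate 1, 0.0609 without CTR siRNA+nutlin replicate 1 and 0.0510 without CTR siRNA+nutlin replicate 2. POLH was at an adjusted p of 0.0607 without CTR siRNA+nutlin replicate 2. Those that rose included POLK, another bypass polymerase, and FANCC, of the Fanconi core. POLK had 3.99 and 3.37 FPKM with p53 siRNA+nutlin, against 1.96 and 1.95 FPKM with CTR siRNA+nutlin (0.66 ± 0.14, adjusted p = 0.00618) and FANCC 3.17 and 2.22 FPKM with p53 siRNA+nutlin, against 1.16 and 1.07 FPKM with CTR siRNA+nutlin (0.80 ± 0.23, adjusted p = 0.0321). POLK was at an adjusted p of 0.0508 without p53 siRNA+nutlin replicate 1. FANCC was at an adjusted p of 0.190 without p53 siRNA+nutlin replicate 1, 0.114 without CTR siRNA+nutlin replicate 1 and 0.126 without CTR siRNA+nutlin replicate 2. DDB1 and APEX1 showed little difference, -0.11 ± 0.095 and 0.12 ± 0.19, and were not called. Under median-ratio scaling 2 rose and 9 fell. The list had 3 risen and 8 fallen genes without p53 siRNA+nutlin replicate 2, 1 rose and 3 fell without p53 siRNA+nutlin replicate 1, 2 rose and 3 fell without CTR siRNA+nutlin replicate 1, 2 rose and 3 fell without CTR siRNA+nutlin replicate 2.

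In metabolism, redox and autophagy 21 of 27 targets tested fell (77.8%) and 1 rose (3.70%), beside 5.29% and 17.2% of all genes. The median of -1.27 was the lowest of the 5 target lists. FDXR, which feeds electrons to mitochondrial P450 enzymes, had 30.8 and 35.7 FPKM with p53 siRNA+nutlin, against 191 and 202 FPKM with CTR siRNA+nutlin, a difference of -2.53 ± 0.19 (SE, adjusted p = 2.88e-05). CYFIP2, a WAVE complex subunit, had 7.01 and 10.97 FPKM with p53 siRNA+nutlin, against 41.1 and 41.9 FPKM with CTR siRNA+nutlin, a difference of -2.12 ± 0.23 (SE, adjusted p = 0.000139). SESN1, a sestrin that restrains mTORC1, had 1.43 and 4.33 FPKM with p53 siRNA+nutlin, against 15.7 and 12.99 FPKM with CTR siRNA+nutlin, a difference of -2.09 ± 0.40 (SE, adjusted p = 0.00372). FDXR was even between replicates, while SESN1 was about 3 times as high in p53 siRNA+nutlin replicate 2 as in replicate 1. PRODH, proline dehydrogenase, was higher in replicate 1 of p53 siRNA+nutlin, with 1.64 and 0.595 FPKM with p53 siRNA+nutlin, against 9.26 and 7.05 FPKM with CTR siRNA+nutlin (-2.15 ± 0.27, adjusted p = 0.000302). DDIT4, an mTORC1 inhibitor also induced by hypoxia and ATF4, was the one that rose, with 58.1 and 46.4 FPKM with p53 siRNA+nutlin, against 30.9 and 34.03 FPKM with CTR siRNA+nutlin (0.66 ± 0.15, adjusted p = 0.00805). DDIT4 was at an adjusted p of 0.0717 without p53 siRNA+nutlin replicate 1 and 0.0708 without CTR siRNA+nutlin replicate 1. SCO2, ULK1 and PRKAB2 had the smallest differences, 0.10 ± 0.17, -0.20 ± 0.18 and -0.38 ± 0.20, and were not called. Here too fewer were called when any 1 of the 4 libraries was left out, with the smallest loss for p53 siRNA+nutlin replicate 2.

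Secreted, surface and signalling targets also fell for the most part, with 25 of 32 tested fallen (78.1%), 1 risen (3.1%) and a median of -1.24. Of all genes 5.29% fell and 17.2% rose. GDF15 (chr19:18374731-18389176), a stress cytokine of the TGF-beta family, had 273 and 453 FPKM with p53 siRNA+nutlin, against 2440.3 and 2547 FPKM with CTR siRNA+nutlin, a difference of -2.82 ± 0.24 (SE, adjusted p = 3.36e-05). CD82, a tetraspanin, had 3.74 and 7.77 FPKM with p53 siRNA+nutlin, against 80.95 and 69.7 FPKM with CTR siRNA+nutlin, a difference of -3.56 ± 0.34 (SE, adjusted p = 6.47e-05). EPN3, an endocytic epsin, had 5.18 and 8.67 FPKM with p53 siRNA+nutlin, against 40.9 and 37.00 FPKM with CTR siRNA+nutlin, a difference of -2.37 ± 0.34 (SE, adjusted p = 0.000718). Each of these was higher in replicate 2 than in replicate 1 of p53 siRNA+nutlin and higher still in both CTR siRNA+nutlin libraries. PGF, a VEGF relative, had 1.31 and 4.67 FPKM with p53 siRNA+nutlin, against 15.1 and 16.1 FPKM with CTR siRNA+nutlin (-2.20 ± 0.35, adjusted p = 0.00117), and PTAFR, the platelet-activating factor receptor, 0.265 and 0.879 FPKM with p53 siRNA+nutlin, against 4.90 and 5.43 FPKM with CTR siRNA+nutlin (-2.00 ± 0.30, adjusted p = 0.000946). ACTA2, smooth muscle actin, had the widest replicate gap of the list, with 1.17 and 14.02 FPKM with p53 siRNA+nutlin, against 58.9 and 53.8 FPKM with CTR siRNA+nutlin (-3.33 ± 0.76, adjusted p = 0.00995). ACTA2 was at an adjusted p of 0.0717 without p53 siRNA+nutlin replicate 1 and 0.0614 without CTR siRNA+nutlin replicate 1. KITLG, the ligand of KIT, was the one that rose, with 115 and 170.2 FPKM with p53 siRNA+nutlin, against 84.8 and 85.6 FPKM with CTR siRNA+nutlin (0.71 ± 0.23, adjusted p = 0.0453). KITLG was at an adjusted p of 0.256 without p53 siRNA+nutlin replicate 2, 0.165 without CTR siRNA+nutlin replicate 1 and 0.139 without CTR siRNA+nutlin replicate 2. LIF, a cytokine, had 6.36 and 6.38 FPKM with p53 siRNA+nutlin, against 6.46 and 6.60 FPKM with CTR siRNA+nutlin and was not called (-0.031 ± 0.20), nor were IER5 (-0.15 ± 0.22) and ARHGEF3 (-0.48 ± 0.20). With p53 siRNA+nutlin replicate 2 left out, 0 rose and 21 fell, 0 rose and 16 fell without CTR siRNA+nutlin replicate 1.

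**Figure D1:**
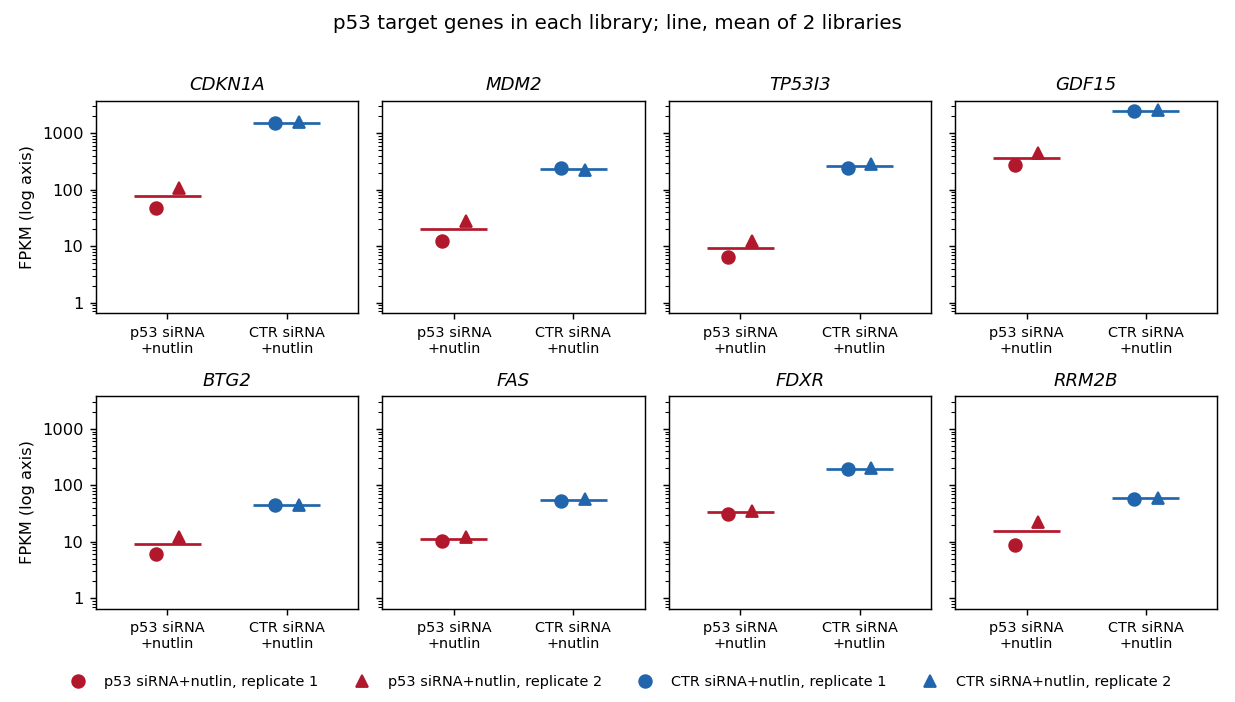
FPKM on a log axis of 8 p53 target genes in each of the 4 libraries, p53 siRNA+nutlin in red and CTR siRNA+nutlin in blue, with circles for replicate 1, triangles for replicate 2 and lines for the mean of 2 libraries. Both p53 siRNA+nutlin libraries lie below both CTR siRNA+nutlin libraries for every gene shown, and the triangle lies above the circle of p53 siRNA+nutlin, as for CDKN1A at 47.4 and 107 FPKM.

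The 10 largest falls outside histones and clone names also held genes outside the lists. LCE1F and LCE1C, late cornified envelope proteins of skin, were listed at 0 in both p53 siRNA+nutlin libraries. With CTR siRNA+nutlin LCE1F had 39.4 and 67.9 FPKM and LCE1C 15.6 and 30.7 FPKM. LCN15, a lipocalin, was likewise listed at 0 in both, against 9.63 and 10.5 FPKM with CTR siRNA+nutlin. No fold is given for these 3, since the table holds no counts, and their adjusted p-values were 0.00103, 0.00115 and 0.000238. SULF2, an extracellular sulfatase, had 0.203 and 4.17 FPKM with p53 siRNA+nutlin, against 31.1 and 32.2 FPKM with CTR siRNA+nutlin (-3.71 ± 0.62, adjusted p = 0.00170). TMEM249 had 0 and 7.73 FPKM with p53 siRNA+nutlin, against 37.8 and 35.2 FPKM with CTR siRNA+nutlin (-3.66 ± 0.77, adjusted p = 0.00664). Both were near or at 0 in replicate 1 of p53 siRNA+nutlin and higher in replicate 2.

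Response elements were looked for in promoters, taken from RefSeq on GRCh38.p14 as the 250 bases before and 50 bases after each gene's start. The p53 element, by its name alone, was searched as 2 copies of its 10-letter consensus with at most 2 mismatches in all and at most 3 bases between them, which reads the same on both strands. It was found in 6 of the 64 fallen p53 targets with a promoter in the table (9.38%), beside 273 of all 27305 promoters (1.00%). Many known elements of these genes lie in introns or further upstream, outside this window. Capitals mark the element in 2 of the 6, which were chosen after the search as examples. AEN, an apoptosis-enhancing nuclease, had 11.5 and 14.00 FPKM with p53 siRNA+nutlin, against 19.5 and 19.02 FPKM with CTR siRNA+nutlin (-0.57 ± 0.15, adjusted p = 0.0215). AEN was at an adjusted p of 0.145 without p53 siRNA+nutlin replicate 1, 0.110 without CTR siRNA+nutlin replicate 1 and 0.0823 without CTR siRNA+nutlin replicate 2. Its element lies before the gene's start (chr15:88621090-88621389, + strand), and that in the ACTA2 window after it (chr10:88991288-88991587, - strand). The ACTA2 window lies downstream of that of FAS (chr10:88990548-88990847, + strand), a fallen target with no match in its own window. The letters do not say which of these neighbours the element belongs to. A match describes letters and not a bound site.
AEN: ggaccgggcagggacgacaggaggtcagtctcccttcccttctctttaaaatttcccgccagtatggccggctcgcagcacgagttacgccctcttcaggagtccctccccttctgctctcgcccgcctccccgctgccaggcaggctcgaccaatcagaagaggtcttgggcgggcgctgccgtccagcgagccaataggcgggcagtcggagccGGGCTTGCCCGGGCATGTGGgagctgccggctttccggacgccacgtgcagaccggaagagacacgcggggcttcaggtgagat
ACTA2: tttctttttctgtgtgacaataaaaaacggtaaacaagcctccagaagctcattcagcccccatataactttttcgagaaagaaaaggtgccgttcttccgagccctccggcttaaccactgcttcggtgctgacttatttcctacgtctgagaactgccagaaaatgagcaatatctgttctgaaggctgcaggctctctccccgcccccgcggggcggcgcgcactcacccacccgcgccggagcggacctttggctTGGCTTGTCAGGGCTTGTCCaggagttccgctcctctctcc

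Every gene of G2 and mitosis on the list rose. All 64 were tested, all 64 were called, the median difference was 3.31, and the range was 1.15 to 4.74, while 17.2% of all genes rose. The 64 stayed called when any 1 of the 4 libraries was left out and under median-ratio scaling. PLK1 (chr16:23677656-23690367), the polo kinase of mitotic entry, had 81.4 and 55.7 FPKM with p53 siRNA+nutlin, against 2.22 and 1.74 FPKM with CTR siRNA+nutlin, a difference of 4.53 ± 0.56 (SE, adjusted p = 0.000268). CDK1 (chr10:60778331-60794852), the mitotic kinase, had 78.8 and 72.4 FPKM with p53 siRNA+nutlin, against 2.39 and 2.32 FPKM with CTR siRNA+nutlin, a difference of 4.51 ± 0.54 (SE, adjusted p = 0.000217). CDC20 (chr1:43358955-43363203), which activates the anaphase-promoting complex, had 145 and 101 FPKM with p53 siRNA+nutlin, against 5.17 and 5.51 FPKM with CTR siRNA+nutlin, a difference of 4.27 ± 0.55 (SE, adjusted p = 0.000373). In each the p53 siRNA+nutlin libraries were more than 18 times as high as the CTR siRNA+nutlin libraries, and replicate 2 was the lower of its pair, the reverse of the p53 targets. Cyclin genes moved alike, with CCNA2 at 34.1 and 21.2 FPKM with p53 siRNA+nutlin, against 0.359 and 0.446 FPKM with CTR siRNA+nutlin (4.32 ± 0.43, adjusted p = 7.84e-05) and CCNB1 at 226 and 161 FPKM with p53 siRNA+nutlin, against 11.02 and 7.17 FPKM with CTR siRNA+nutlin (4.27 ± 0.41, adjusted p = 6.47e-05). AURKB, the kinase of the chromosomal passenger complex, had 97.1 and 70.4 FPKM with p53 siRNA+nutlin, against 3.81 and 1.96 FPKM with CTR siRNA+nutlin (4.47 ± 0.27, adjusted p = 9.94e-06).

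UBE2C, the ubiquitin-conjugating enzyme of the same anaphase complex, had the largest difference of the list, with 332 and 249 FPKM with p53 siRNA+nutlin, against 9.79 and 9.82 FPKM with CTR siRNA+nutlin (4.74 ± 0.61, adjusted p = 0.000364). HMGB2, a chromatin bending protein, had 282 and 185 FPKM with p53 siRNA+nutlin, against 8.73 and 9.17 FPKM with CTR siRNA+nutlin (4.53 ± 0.55, adjusted p = 0.000254). SPC25, of the kinetochore, had 33.6 and 30.00 FPKM with p53 siRNA+nutlin, against 0.507 and 0.780 FPKM with CTR siRNA+nutlin (4.32 ± 0.52, adjusted p = 0.000229), and PBK, a mitotic kinase, 62.3 and 52.5 FPKM with p53 siRNA+nutlin, against 2.15 and 1.84 FPKM with CTR siRNA+nutlin (4.28 ± 0.44, adjusted p = 9.61e-05). These complete the 10 largest rises outside histones and clone names, and all but HMGB2 are genes of mitosis. The lists were written with earlier results of these data known, so this describes them and is no test. The smallest differences of the list were those of genes of low level, namely CENPE, a kinesin of the kinetochore, with 2.21 and 0.975 FPKM with p53 siRNA+nutlin, against 0.135 and 0.131 FPKM with CTR siRNA+nutlin (1.15 ± 0.21), KIF20B with 2.99 and 2.47 FPKM with p53 siRNA+nutlin, against 0.566 and 0.491 FPKM with CTR siRNA+nutlin (1.28 ± 0.16), and ASPM, a spindle pole protein, with 1.87 and 1.37 FPKM with p53 siRNA+nutlin, against 0.0586 and 0.0264 FPKM with CTR siRNA+nutlin (1.32 ± 0.17). Adding 1 FPKM before the logarithm compresses such genes, and by FPKM alone the ASPM means differed 38.1-fold.

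**Figure D2:**
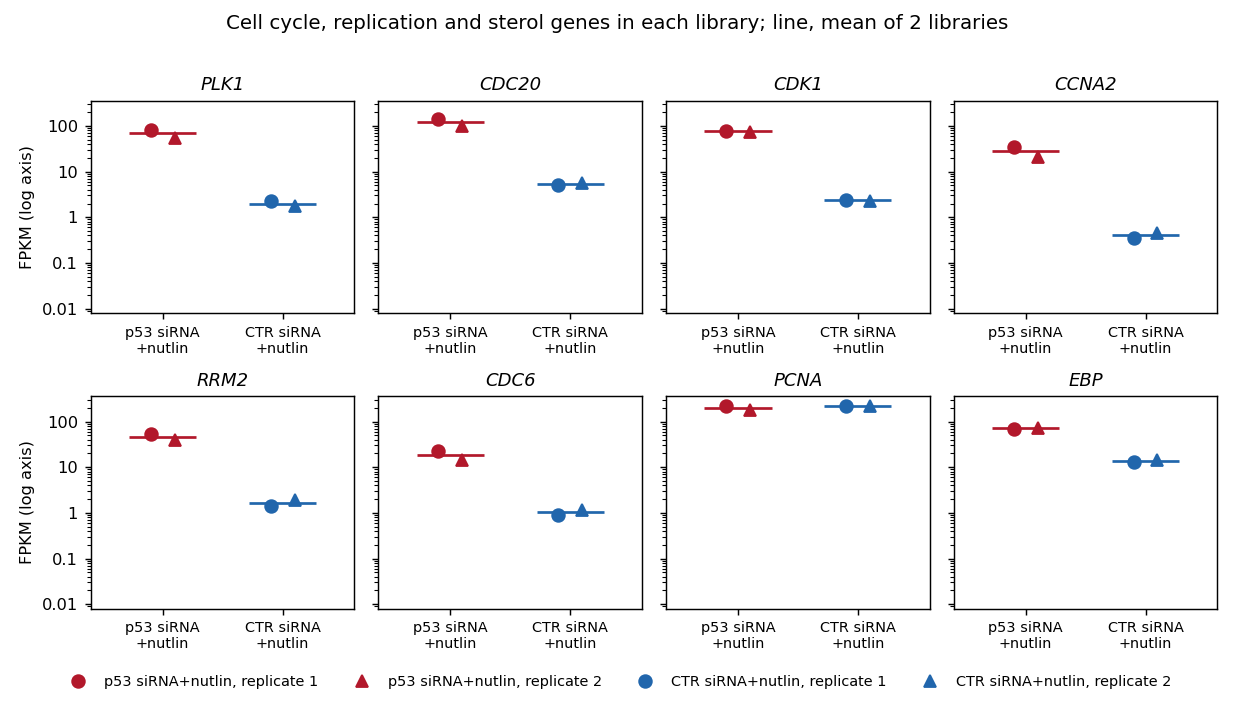
FPKM on a log axis of 8 genes of the cell cycle, replication and sterol synthesis in each of the 4 libraries, p53 siRNA+nutlin in red and CTR siRNA+nutlin in blue, with circles for replicate 1, triangles for replicate 2 and lines for the mean of 2 libraries. The red points lie above the blue ones for 7 of 8 genes, and PCNA, with 217 and 183 FPKM with p53 siRNA+nutlin, against 218 and 218 FPKM with CTR siRNA+nutlin, is the exception, with red points just below blue ones.

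The CHR element, spelled TTTGAA or TTCGAA, was searched on both strands, as was the CCAAT box that NF-Y binds. Of the 64 risen G2 and mitosis genes 55 had a promoter in the RefSeq table, and 40 of these (72.7%) held a CHR word and 42 (76.4%) a CCAAT box, beside 16.6% and 35.7% of all 27305 promoters. E2F words (TTTGGCGC, TTTCCCGC or TTTCGCGC, both strands) were in 3 of the 55 (5.45%), beside 2.79% of all. In the risen replication genes E2F words were common and CHR words were not, while the CCAAT share again lay above that of all promoters. Of 46 with a promoter, 22 (47.8%) held an E2F word, 23 (50%) a CCAAT box and 5 (10.9%) a CHR word. In the 64 fallen p53 targets with a promoter the shares were 7.81% for E2F words, 31.2% for CCAAT and 9.38% for CHR. Among the 13 risen genes of cholesterol synthesis and uptake 9 had a promoter in the table, and 7 of these (77.8%) held a CCAAT box, 1 (11.1%) an E2F word, 1 (11.1%) the p53 element and 0 a CHR word. The p53 element was in 0 of the promoters of the risen mitosis and replication genes. Examples were chosen after the search, from genes described here, as a pair for each motif. Capitals mark CHR and CCAAT words in PLK1 (chr16:23678639-23678938, + strand) and CDC20 (chr1:43358731-43359030, + strand), and E2F words, read on either strand, in CDC6 (chr17:40287629-40287928, + strand) and GINS2 (chr16:85688905-85689204, - strand).
PLK1: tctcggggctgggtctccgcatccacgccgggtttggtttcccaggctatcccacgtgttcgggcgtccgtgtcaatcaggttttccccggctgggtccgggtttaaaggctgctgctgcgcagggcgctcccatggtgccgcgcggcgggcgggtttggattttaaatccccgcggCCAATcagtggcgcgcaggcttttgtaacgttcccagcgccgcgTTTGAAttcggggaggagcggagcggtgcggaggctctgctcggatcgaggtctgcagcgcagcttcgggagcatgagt
CDC20: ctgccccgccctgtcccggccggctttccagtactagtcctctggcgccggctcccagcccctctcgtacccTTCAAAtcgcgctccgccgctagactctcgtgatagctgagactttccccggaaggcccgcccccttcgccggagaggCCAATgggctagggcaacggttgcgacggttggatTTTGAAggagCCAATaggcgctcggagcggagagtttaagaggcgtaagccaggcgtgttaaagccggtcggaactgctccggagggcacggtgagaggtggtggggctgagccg
CDC6: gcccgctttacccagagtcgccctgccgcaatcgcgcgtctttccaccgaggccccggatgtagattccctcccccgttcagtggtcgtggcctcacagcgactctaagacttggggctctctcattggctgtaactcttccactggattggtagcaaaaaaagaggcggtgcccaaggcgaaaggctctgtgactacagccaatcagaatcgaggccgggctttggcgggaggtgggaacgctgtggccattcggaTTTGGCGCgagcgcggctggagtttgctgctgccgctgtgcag
GINS2: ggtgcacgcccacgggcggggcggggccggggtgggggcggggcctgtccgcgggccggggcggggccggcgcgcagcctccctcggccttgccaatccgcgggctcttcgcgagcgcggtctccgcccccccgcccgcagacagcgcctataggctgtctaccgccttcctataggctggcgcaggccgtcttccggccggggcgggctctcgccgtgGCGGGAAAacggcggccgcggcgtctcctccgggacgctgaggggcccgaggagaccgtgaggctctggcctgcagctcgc

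DNA replication and G1/S genes rose in 54 of 55 cases (98.2%), beside 17.2% of all genes, with a median of 2.34. RRM2, the S phase subunit of ribonucleotide reductase, had 54.1 and 38.7 FPKM with p53 siRNA+nutlin, against 1.38 and 1.94 FPKM with CTR siRNA+nutlin, a difference of 4.14 ± 0.43 (SE, adjusted p = 9.72e-05). CDC6 (chr17:40287633-40304657), which loads the replicative helicase, had 22.8 and 14.4 FPKM with p53 siRNA+nutlin, against 0.894 and 1.17 FPKM with CTR siRNA+nutlin, a difference of 3.24 ± 0.30 (SE, adjusted p = 5.67e-05). GINS2 (chr16:85676198-85690073), a part of that helicase, had 16.4 and 8.19 FPKM with p53 siRNA+nutlin, against 0.119 and 0.296 FPKM with CTR siRNA+nutlin, a difference of 3.39 ± 0.29 (SE, adjusted p = 4.32e-05). Replicate 2 held about 0.5 to 0.7 of the level of replicate 1 in these genes and remained many times above both CTR siRNA+nutlin libraries. The histone chaperone ASF1B had 38.9 and 27.02 FPKM with p53 siRNA+nutlin, against 1.02 and 0.865 FPKM with CTR siRNA+nutlin (4.11 ± 0.57, adjusted p = 0.000551), sororin, encoded by CDCA5, 44.6 and 21.8 FPKM with p53 siRNA+nutlin, against 1.34 and 0.946 FPKM with CTR siRNA+nutlin (3.91 ± 0.56, adjusted p = 0.000711), and the origin subunit ORC6 19.6 and 13.4 FPKM with p53 siRNA+nutlin, against 1.30 and 0.366 FPKM with CTR siRNA+nutlin (3.28 ± 0.34, adjusted p = 9.74e-05). PCNA, the sliding clamp, was the one not called, with 217 and 183 FPKM with p53 siRNA+nutlin, against 218 and 218 FPKM with CTR siRNA+nutlin (-0.13 ± 0.13, adjusted p = 0.521). It is both a replication gene and a known p53 target. LIG1, the ligase of Okazaki fragments, and CCNE1, the G1/S cyclin, had the next smallest differences. LIG1 had 12.2 and 6.63 FPKM with p53 siRNA+nutlin, against 4.86 and 4.81 FPKM with CTR siRNA+nutlin (0.78 ± 0.23, adjusted p = 0.0324), and CCNE1 had 18.2 and 17.6 FPKM with p53 siRNA+nutlin, against 12.5 and 7.86 FPKM with CTR siRNA+nutlin (0.79 ± 0.18, adjusted p = 0.00884). LIG1 was at an adjusted p of 0.239 without p53 siRNA+nutlin replicate 1, 0.125 without CTR siRNA+nutlin replicate 1 and 0.116 without CTR siRNA+nutlin replicate 2. CCNE1 was at an adjusted p of 0.0532 without p53 siRNA+nutlin replicate 1 and 0.0727 without CTR siRNA+nutlin replicate 2. The count of risen genes held without p53 siRNA+nutlin replicate 2 and was lower without any other of the 4 libraries.

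Of 26 genes of nucleotide synthesis tested 14 rose (53.8%) and 1 fell (3.85%), beside 17.2% and 5.29% of all genes, with a median of 0.54. TK1, thymidine kinase, had 230.3 and 163 FPKM with p53 siRNA+nutlin, against 26.7 and 22.6 FPKM with CTR siRNA+nutlin (2.93 ± 0.31, adjusted p = 0.000115). DUT, which removes dUTP, had 68.1 and 47.9 FPKM with p53 siRNA+nutlin, against 10.3 and 10.6 FPKM with CTR siRNA+nutlin (2.34 ± 0.19, adjusted p = 3.36e-05). SHMT1, of the folate cycle, had 28.98 and 21.8 FPKM with p53 siRNA+nutlin, against 4.62 and 6.27 FPKM with CTR siRNA+nutlin (2.03 ± 0.28, adjusted p = 0.000533) and DCK, deoxycytidine kinase, 13.6 and 11.3 FPKM with p53 siRNA+nutlin, against 2.12 and 2.57 FPKM with CTR siRNA+nutlin (2.01 ± 0.35, adjusted p = 0.00207). NME1, a nucleoside diphosphate kinase, fell, with 775 and 548 FPKM with p53 siRNA+nutlin, against 1091 and 1059 FPKM with CTR siRNA+nutlin (-0.72 ± 0.14, adjusted p = 0.00446). ADSL, ATIC and CTPS1, of purine and CTP synthesis, had the smallest differences, 0.038 ± 0.10, -0.10 ± 0.15 and -0.13 ± 0.10, and were not called. The list had 14 risen and 1 fallen genes without p53 siRNA+nutlin replicate 2.

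Homologous recombination and Fanconi genes rose in 26 of 28 cases tested (92.9%), beside 17.2% of all genes, with a median of 1.94. RAD51AP1, a recombination factor, had 21.7 and 10.7 FPKM with p53 siRNA+nutlin, against 0 and 0.440 FPKM with CTR siRNA+nutlin (3.76 ± 0.30, adjusted p = 3.36e-05). FANCI, which with FANCD2 is clamped onto crosslinked DNA, had 16.7 and 15.02 FPKM with p53 siRNA+nutlin, against 0.981 and 1.35 FPKM with CTR siRNA+nutlin (2.96 ± 0.31, adjusted p = 0.000116). RAD51AP1 in p53 siRNA+nutlin replicate 2 was at about 0.5 of replicate 1, while FANCI was nearly even. UBE2T, which attaches ubiquitin to that pair, had 103 and 93.2 FPKM with p53 siRNA+nutlin, against 13.8 and 10.9 FPKM with CTR siRNA+nutlin (2.90 ± 0.24, adjusted p = 3.36e-05). FANCG rose by 2.50 ± 0.28 (SE, adjusted p = 0.000148) and RAD54L, a motor of recombination, by 2.45 ± 0.43 (SE, adjusted p = 0.00210). PALB2 and FANCE, with differences of 0.11 ± 0.12 and 0.39 ± 0.13, were the 2 not called. RBBP8, the resection factor CtIP, rose least, with 26.1 and 16.2 FPKM with p53 siRNA+nutlin, against 11.9 and 12.2 FPKM with CTR siRNA+nutlin (0.73 ± 0.19, adjusted p = 0.0204). RBBP8 was at an adjusted p of 0.153 without p53 siRNA+nutlin replicate 1, 0.103 without CTR siRNA+nutlin replicate 1 and 0.0779 without CTR siRNA+nutlin replicate 2. As many rose without p53 siRNA+nutlin replicate 2, and fewer without any other of the 4 libraries.

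Among the regulators of these genes, 11 of 21 E2F, RB and DREAM genes rose (52.4%) and 0 fell, with a median of 0.87. Of all genes 17.2% rose and 5.29% fell. MYBL2, which joins the complex when it turns into an activator, had 26.7 and 16.4 FPKM with p53 siRNA+nutlin, against 0.701 and 0.541 FPKM with CTR siRNA+nutlin (3.76 ± 0.40, adjusted p = 0.000123). FOXM1, the forkhead factor of mitotic genes, had 27.8 and 18.7 FPKM with p53 siRNA+nutlin, against 0.672 and 0.850 FPKM with CTR siRNA+nutlin (3.76 ± 0.53, adjusted p = 0.000649). E2F1, an activating E2F, had 6.83 and 5.31 FPKM with p53 siRNA+nutlin, against 0 and 0.332 FPKM with CTR siRNA+nutlin (2.61 ± 0.29, adjusted p = 0.000148). These 3 had FPKM of at most 0.850 in both CTR siRNA+nutlin libraries. MYBL1, E2F8 and LIN9 rose less, by 1.43 ± 0.21 (SE, adjusted p = 0.000883), 1.32 ± 0.22 (SE, adjusted p = 0.00159) and 1.39 ± 0.31 (SE, adjusted p = 0.00820). LIN9 was at an adjusted p of 0.0793 without p53 siRNA+nutlin replicate 1 and 0.0770 without CTR siRNA+nutlin replicate 1. E2F5, E2F6 and TFDP2 differed by 0.0076 ± 0.25, -0.041 ± 0.25 and 0.065 ± 0.29 and were not called. With p53 siRNA+nutlin replicate 2 left out, 10 rose and 0 fell. Of 15 cyclin-dependent kinases, D cyclins and their inhibitors 9 rose (60%) and 2 fell (13.3%), beside 17.2% and 5.29% of all genes. The 2 that fell were CDKN1A and CCND1. CCND1, cyclin D1, had 61.3 and 59.8 FPKM with p53 siRNA+nutlin, against 90.4 and 95.8 FPKM with CTR siRNA+nutlin (-0.61 ± 0.12, adjusted p = 0.00505). CDK2 had 34.3 and 26.7 FPKM with p53 siRNA+nutlin, against 7.60 and 6.83 FPKM with CTR siRNA+nutlin (1.93 ± 0.21, adjusted p = 0.000150), and WEE1, which holds CDK1 inactive, 16.7 and 9.77 FPKM with p53 siRNA+nutlin, against 2.41 and 2.28 FPKM with CTR siRNA+nutlin (2.05 ± 0.21, adjusted p = 9.47e-05). PKMYT1, a kinase related to WEE1, rose by 2.58 ± 0.35 (SE, adjusted p = 0.000527), the phosphatase CDC25A by 2.08 ± 0.31 (SE, adjusted p = 0.000869), and the inhibitor CDKN1C, p57, by 1.39 ± 0.24 (SE, adjusted p = 0.00208). CDK4, CDK6 and CDKN2B, at 0.53 ± 0.19, -0.53 ± 0.19 and -0.32 ± 0.21, were not called. Leaving out p53 siRNA+nutlin replicate 2, 10 rose and 2 fell.

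Replication-coupled histone genes had the largest rises of all and the widest replicate gap. Of 39 tested 29 rose (74.4%) and 0 fell, beside 17.2% and 5.29% of all genes, with a median of 2.49. HIST1H4A had 717 and 189 FPKM with p53 siRNA+nutlin, against 0 and 18.2 FPKM with CTR siRNA+nutlin (6.40 ± 1.06, adjusted p = 0.00160). HIST1H2BO had 362 and 132 FPKM with p53 siRNA+nutlin, against 0 and 4.82 FPKM with CTR siRNA+nutlin (6.51 ± 0.76, adjusted p = 0.000189), and HIST1H2AH 267 and 54.3 FPKM with p53 siRNA+nutlin, against 0 and 4.59 FPKM with CTR siRNA+nutlin (5.68 ± 0.78, adjusted p = 0.000523). Replicate 2 of p53 siRNA+nutlin held 0.20 to 0.36 of the level of replicate 1 in these genes. HIST1H2AB had 66.00 and 35.5 FPKM with p53 siRNA+nutlin and was listed at 0 in both CTR siRNA+nutlin libraries (adjusted p = 3.57e-05). HIST1H2AJ and HIST1H2BM rose by 5.42 ± 0.97 (SE, adjusted p = 0.00248) and 4.69 ± 0.79 (SE, adjusted p = 0.00178). HIST1H2BK, which also makes a polyadenylated transcript, had 476 and 218 FPKM with p53 siRNA+nutlin, against 245 and 253 FPKM with CTR siRNA+nutlin and was not called (0.37 ± 0.34). HIST1H3E was at -0.16 ± 0.23, and HIST1H2AK was listed at 0 in all 4 libraries. Most histone messages lack a poly(A) tail and the libraries were made from mRNA bound to beads, and these genes are near copies of each other between which reads can be split, so each value is uncertain. The list had 32 risen and 0 fallen genes without p53 siRNA+nutlin replicate 2, 19 rose and 0 fell without p53 siRNA+nutlin replicate 1, 19 rose and 0 fell without CTR siRNA+nutlin replicate 1.

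**Figure D3:**
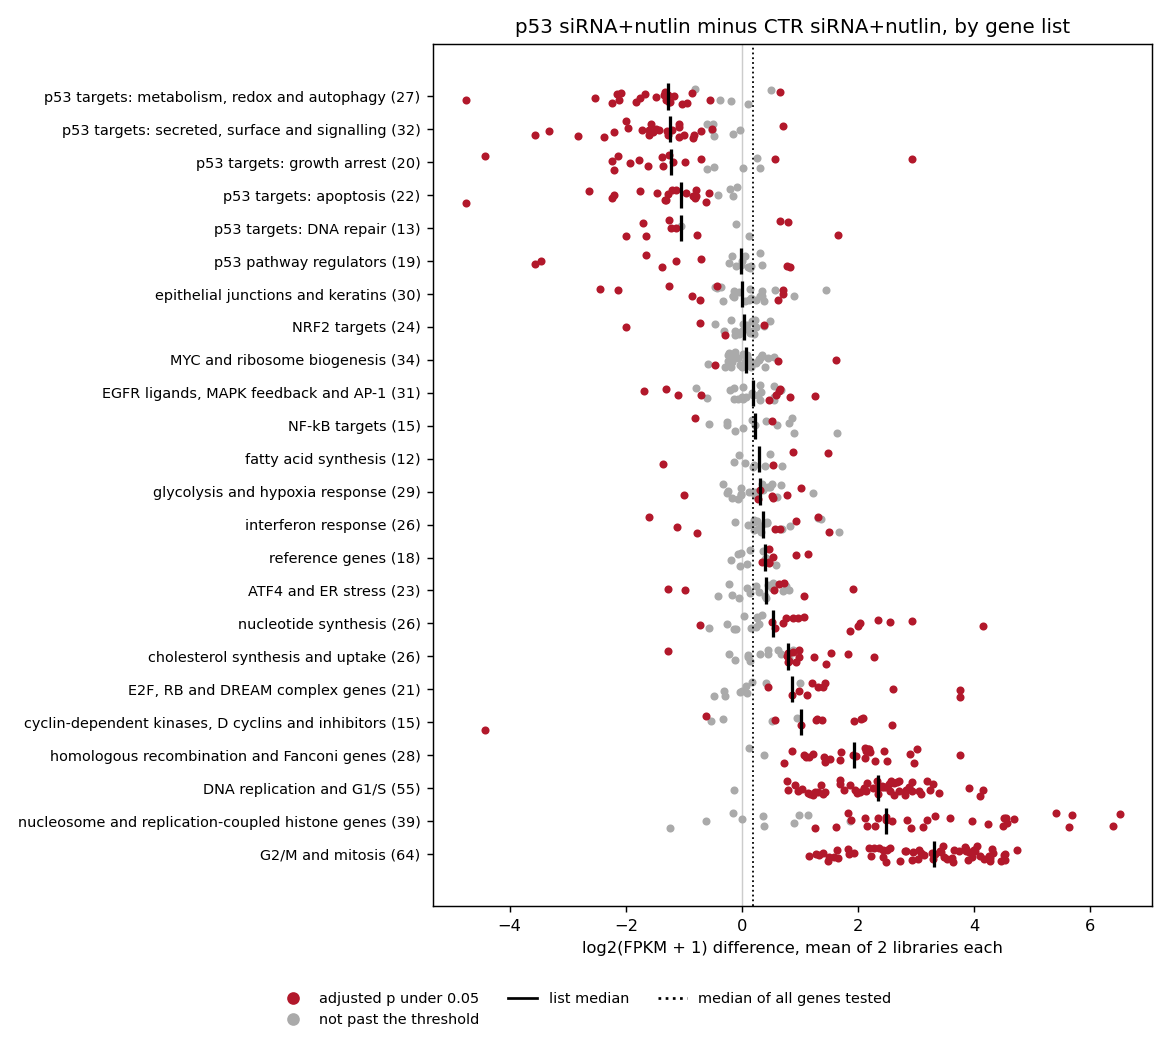
Difference in log2(FPKM + 1), p53 siRNA+nutlin minus CTR siRNA+nutlin, of each tested gene in 24 lists, with the number tested in brackets, red for adjusted p under 0.05, grey for the rest, black bars for list medians and a dotted line for the median of all genes. The 5 p53 target lists lie left of 0 with medians of -1.27 to -1.04, and the G2/M list lies furthest right with a median of 3.31.

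Sterol genes rose in part. Of 26 genes of cholesterol synthesis and uptake 13 rose (50%) and 1 fell (3.85%), beside 17.2% and 5.29% of all genes, with a median of 0.80, or 0.57 under median-ratio scaling. EBP, the sterol isomerase, had 70.1 and 70.9 FPKM with p53 siRNA+nutlin, against 13.00 and 14.5 FPKM with CTR siRNA+nutlin (2.28 ± 0.32, adjusted p = 0.000577). ACAT2, which makes acetoacetyl-CoA, had 12.96 and 21.9 FPKM with p53 siRNA+nutlin, against 5.21 and 5.09 FPKM with CTR siRNA+nutlin (1.54 ± 0.31, adjusted p = 0.00456). INSIG1, the sterol sensor that holds SREBP back, had 68.9 and 96.5 FPKM with p53 siRNA+nutlin, against 20.1 and 24.8 FPKM with CTR siRNA+nutlin (1.82 ± 0.43, adjusted p = 0.0111). EBP was even between replicates, whereas ACAT2 and INSIG1 were higher in replicate 2 of p53 siRNA+nutlin, so that here replicate 2 lay further from CTR siRNA+nutlin. HMGCS1, HMG-CoA synthase, had 47.6 and 59.7 FPKM with p53 siRNA+nutlin, against 19.5 and 18.2 FPKM with CTR siRNA+nutlin (1.45 ± 0.41, adjusted p = 0.0281) and IDI1 51.97 and 72.3 FPKM with p53 siRNA+nutlin, against 28.6 and 22.4 FPKM with CTR siRNA+nutlin (1.24 ± 0.33, adjusted p = 0.0203). TM7SF2, a sterol reductase, fell, with 20.5 and 44.9 FPKM with p53 siRNA+nutlin, against 74.8 and 74.97 FPKM with CTR siRNA+nutlin (-1.27 ± 0.28, adjusted p = 0.00774). PMVK and SREBF2 were at 0.11 ± 0.18 and -0.12 ± 0.12 and were not called. INSIG1 was at an adjusted p of 0.0632 without p53 siRNA+nutlin replicate 2 and 0.0793 without CTR siRNA+nutlin replicate 1. HMGCS1 was at an adjusted p of 0.0770 without p53 siRNA+nutlin replicate 1, 0.114 without p53 siRNA+nutlin replicate 2, 0.106 without CTR siRNA+nutlin replicate 1 and 0.111 without CTR siRNA+nutlin replicate 2. IDI1 was at an adjusted p of 0.108 without p53 siRNA+nutlin replicate 2, 0.0572 without CTR siRNA+nutlin replicate 1 and 0.116 without CTR siRNA+nutlin replicate 2. 5 rose and 1 fell without p53 siRNA+nutlin replicate 2, 8 rose and 2 fell without p53 siRNA+nutlin replicate 1, 4 rose and 1 fell without CTR siRNA+nutlin replicate 1, 6 rose and 1 fell without CTR siRNA+nutlin replicate 2. Of 12 fatty acid genes 3 rose (25%) and 1 fell (8.33%). ACSL3, an acyl-CoA synthetase, had 35.5 and 33.98 FPKM with p53 siRNA+nutlin, against 10.5 and 13.1 FPKM with CTR siRNA+nutlin (1.49 ± 0.18, adjusted p = 0.000238), and ELOVL5, an elongase, 34.6 and 32.5 FPKM with p53 siRNA+nutlin, against 18.5 and 16.8 FPKM with CTR siRNA+nutlin (0.89 ± 0.14, adjusted p = 0.00112). MID1IP1, an activator of acetyl-CoA carboxylase, fell, with 19.9 and 17.9 FPKM with p53 siRNA+nutlin, against 48.6 and 51.5 FPKM with CTR siRNA+nutlin (-1.36 ± 0.24, adjusted p = 0.00208). ACLY, which supplies cytosolic acetyl-CoA, had 35.9 and 57.2 FPKM with p53 siRNA+nutlin, against 43.6 and 44.2 FPKM with CTR siRNA+nutlin and was not called (0.046 ± 0.24). With p53 siRNA+nutlin replicate 2 left out, 2 rose and 1 fell.

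Of 23 ATF4 and endoplasmic reticulum stress genes 5 rose (21.7%) and 2 fell (8.70%), beside 17.2% and 5.29% of all genes, and under median-ratio scaling 2 rose and 2 fell. These shares lie near those of all genes. PHGDH, which begins serine synthesis, had 83.96 and 58.3 FPKM with p53 siRNA+nutlin, against 15.9 and 19.7 FPKM with CTR siRNA+nutlin (1.92 ± 0.49, adjusted p = 0.0173), and ASNS, asparagine synthetase, 138 and 90.2 FPKM with p53 siRNA+nutlin, against 50.6 and 54.9 FPKM with CTR siRNA+nutlin (1.07 ± 0.29, adjusted p = 0.0238). SESN2, a sestrin that p53 also induces, fell, with 4.13 and 3.13 FPKM with p53 siRNA+nutlin, against 9.72 and 10.4 FPKM with CTR siRNA+nutlin (-1.27 ± 0.31, adjusted p = 0.0134), as did ATF3 (-0.99 ± 0.28, adjusted p = 0.0284). HSPA5, the main chaperone of that compartment, had 136 and 103 FPKM with p53 siRNA+nutlin, against 122 and 123 FPKM with CTR siRNA+nutlin and was not called (-0.054 ± 0.18). PHGDH was at an adjusted p of 0.114 without p53 siRNA+nutlin replicate 1, 0.103 without CTR siRNA+nutlin replicate 1 and 0.0559 without CTR siRNA+nutlin replicate 2. ASNS was at an adjusted p of 0.174 without p53 siRNA+nutlin replicate 1, 0.121 without CTR siRNA+nutlin replicate 1 and 0.0779 without CTR siRNA+nutlin replicate 2. SESN2 was at an adjusted p of 0.0695 without p53 siRNA+nutlin replicate 2, 0.0628 without CTR siRNA+nutlin replicate 1 and 0.0704 without CTR siRNA+nutlin replicate 2. ATF3 was at an adjusted p of 0.211 without p53 siRNA+nutlin replicate 1, 0.0864 without CTR siRNA+nutlin replicate 1 and 0.134 without CTR siRNA+nutlin replicate 2. Leaving out p53 siRNA+nutlin replicate 2, 9 rose and 1 fell, 0 rose and 1 fell without p53 siRNA+nutlin replicate 1, 0 rose and 0 fell without CTR siRNA+nutlin replicate 1, 0 rose and 0 fell without CTR siRNA+nutlin replicate 2.

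Of 29 glycolysis and hypoxia genes 6 rose (20.7%) and 1 fell (3.45%), beside 17.2% and 5.29% of all genes, which is again near the background. LDHA, lactate dehydrogenase, had 955 and 1009 FPKM with p53 siRNA+nutlin, against 487 and 487 FPKM with CTR siRNA+nutlin, with replicates close in both groups and a difference of 1.01 ± 0.069 (SE, adjusted p = 1.58e-05). SLC2A1, the glucose transporter GLUT1, fell, with 48.2 and 64.5 FPKM with p53 siRNA+nutlin, against 113 and 111 FPKM with CTR siRNA+nutlin (-0.99 ± 0.23, adjusted p = 0.00971). SLC2A1 was at an adjusted p of 0.0860 without p53 siRNA+nutlin replicate 1 and 0.0596 without CTR siRNA+nutlin replicate 1. PKM and GAPDH were at -0.018 ± 0.082 and -0.019 ± 0.10 and were not called. The list had 7 risen and 1 fallen genes without p53 siRNA+nutlin replicate 2, 3 rose and 0 fell without p53 siRNA+nutlin replicate 1, 2 rose and 0 fell without CTR siRNA+nutlin replicate 1. Under median-ratio scaling 2 of the 29 rose and 2 fell. Of 24 NRF2 targets 1 rose (4.17%) and 3 fell (12.5%), beside 17.2% and 5.29% of all genes, and of 15 NF-kB targets 1 rose (6.67%) and 1 fell (6.67%). Under median-ratio scaling 0 rose and 5 fell of the NRF2 list and 0 rose and 2 fell of the NF-kB list. TKT, transketolase, had 208 and 214 FPKM with p53 siRNA+nutlin, against 347 and 349 FPKM with CTR siRNA+nutlin (-0.72 ± 0.13, adjusted p = 0.00313), and TXN, thioredoxin, 747 and 858 FPKM with p53 siRNA+nutlin, against 808 and 777 FPKM with CTR siRNA+nutlin, not called (0.014 ± 0.085). Of the NF-kB list TNIP1 fell (-0.81 ± 0.20, adjusted p = 0.0158), SOD2 rose (0.51 ± 0.11, adjusted p = 0.00862), and NFKB1 was at 0.011 ± 0.20, not called. TNIP1 was at an adjusted p of 0.0937 without p53 siRNA+nutlin replicate 1, 0.0770 without CTR siRNA+nutlin replicate 1 and 0.0739 without CTR siRNA+nutlin replicate 2. SOD2 was at an adjusted p of 0.0642 without p53 siRNA+nutlin replicate 1 and 0.0808 without CTR siRNA+nutlin replicate 1. For the NRF2 list, 2 rose and 4 fell without p53 siRNA+nutlin replicate 2, 0 rose and 1 fell without p53 siRNA+nutlin replicate 1, 0 rose and 1 fell without CTR siRNA+nutlin replicate 1, 0 rose and 1 fell without CTR siRNA+nutlin replicate 2. For the NF-kB list, with p53 siRNA+nutlin replicate 2 left out, 1 rose and 1 fell, 0 rose and 0 fell without p53 siRNA+nutlin replicate 1, 0 rose and 0 fell without CTR siRNA+nutlin replicate 1, 1 rose and 0 fell without CTR siRNA+nutlin replicate 2.

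Of 26 interferon response genes 5 rose (19.2%) and 3 fell (11.5%), beside 17.2% and 5.29% of all genes, the risen share being near that of all genes, and under median-ratio scaling 4 rose and 4 fell. TAP1, a peptide transporter that p53 also induces, had 11.8 and 16.9 FPKM with p53 siRNA+nutlin, against 43.2 and 46.1 FPKM with CTR siRNA+nutlin (-1.59 ± 0.27, adjusted p = 0.00169). ISG15, a ubiquitin-like modifier, had 207 and 246 FPKM with p53 siRNA+nutlin, against 479.5 and 504 FPKM with CTR siRNA+nutlin (-1.12 ± 0.20, adjusted p = 0.00262). B2M, the light chain of MHC class I, rose, with 605 and 746 FPKM with p53 siRNA+nutlin, against 365 and 339.6 FPKM with CTR siRNA+nutlin (0.93 ± 0.13, adjusted p = 0.000709). TAP1 and B2M, which both serve antigen presentation, moved in opposite directions. OAS3, an antiviral synthetase, had 3.64 and 2.91 FPKM with p53 siRNA+nutlin, against 0.428 and 0.584 FPKM with CTR siRNA+nutlin (1.502 ± 0.24, adjusted p = 0.00116). IFITM3, DDX58 and HLA-B were at -0.13 ± 0.11, 0.11 ± 0.22 and 0.20 ± 0.27 and were not called. Leaving out p53 siRNA+nutlin replicate 2, 3 rose and 3 fell, 3 rose and 2 fell without p53 siRNA+nutlin replicate 1, 2 rose and 2 fell without CTR siRNA+nutlin replicate 1, 2 rose and 2 fell without CTR siRNA+nutlin replicate 2.

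Of 31 genes of EGFR ligands, MAPK feedback and AP-1, 6 rose (19.4%) and 4 fell (12.9%), beside 17.2% and 5.29% of all genes, and under median-ratio scaling the balance turned, since 2 rose and 6 fell. AREG, amphiregulin, had 398 and 394 FPKM with p53 siRNA+nutlin, against 1027 and 942 FPKM with CTR siRNA+nutlin (-1.31 ± 0.14, adjusted p = 0.000106), and TGFA, another EGFR ligand, 12.5 and 18.9 FPKM with p53 siRNA+nutlin, against 26.1 and 25.1 FPKM with CTR siRNA+nutlin (-0.70 ± 0.18, adjusted p = 0.0169). DUSP14, a phosphatase, fell, with 12.2 and 13.6 FPKM with p53 siRNA+nutlin, against 46.4 and 41.5 FPKM with CTR siRNA+nutlin (-1.69 ± 0.17, adjusted p = 9.47e-05). ETV5, a target of ERK signalling, rose, with 20.7 and 18.5 FPKM with p53 siRNA+nutlin, against 7.36 and 7.85 FPKM with CTR siRNA+nutlin (1.26 ± 0.29, adjusted p = 0.0107). TGFA was at an adjusted p of 0.133 without p53 siRNA+nutlin replicate 1, 0.0967 without CTR siRNA+nutlin replicate 1 and 0.0663 without CTR siRNA+nutlin replicate 2. ETV5 was at an adjusted p of 0.0690 without p53 siRNA+nutlin replicate 1 and 0.0681 without CTR siRNA+nutlin replicate 1. JUND and DUSP1 were at -0.0064 ± 0.12 and 0.017 ± 0.19 and were not called. The list had 6 risen and 3 fallen genes without p53 siRNA+nutlin replicate 2, 1 rose and 3 fell without p53 siRNA+nutlin replicate 1, 0 rose and 2 fell without CTR siRNA+nutlin replicate 1, 2 rose and 2 fell without CTR siRNA+nutlin replicate 2. Of 30 epithelial genes 3 rose (10%) and 6 fell (20%), beside 17.2% and 5.29% of all genes. KRT19 had 1172 and 1188 FPKM with p53 siRNA+nutlin, against 2763 and 2882 FPKM with CTR siRNA+nutlin (-1.26 ± 0.14, adjusted p = 0.000148), and KRT8 925 and 866 FPKM with p53 siRNA+nutlin, against 1601 and 1634 FPKM with CTR siRNA+nutlin (-0.85 ± 0.089, adjusted p = 0.000106), both with close replicates. CEACAM1, an adhesion molecule, had 0.159 and 0.406 FPKM with p53 siRNA+nutlin, against 5.79 and 6.06 FPKM with CTR siRNA+nutlin (-2.44 ± 0.40, adjusted p = 0.00151). EPCAM rose, with 230.3 and 261 FPKM with p53 siRNA+nutlin, against 158 and 141 FPKM with CTR siRNA+nutlin (0.72 ± 0.15, adjusted p = 0.00664), and DSG2, PKP3 and CLDN7, of desmosomes and tight junctions, were at 0.048 ± 0.15, -0.057 ± 0.11 and 0.11 ± 0.13, not called. EPCAM was at an adjusted p of 0.0554 without CTR siRNA+nutlin replicate 2. Under median-ratio scaling 2 of the 30 rose and 10 fell. 4 rose and 7 fell without p53 siRNA+nutlin replicate 2.

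The MYC and ribosome biogenesis list changed in 3 of 34 members, with 2 risen and 1 fallen, beside 22.5% of all genes called. MXD3, a MAX partner, rose, with 4.04 and 4.77 FPKM with p53 siRNA+nutlin, against 0.888 and 0.638 FPKM with CTR siRNA+nutlin (1.62 ± 0.28, adjusted p = 0.00204). NOP16, NHP2 and LYAR were at -0.025 ± 0.15, 0.027 ± 0.12 and 0.0091 ± 0.15 and were not called. Under median-ratio scaling 1 rose and 3 fell. With p53 siRNA+nutlin replicate 2 left out, 5 rose and 0 fell, 1 rose and 1 fell without p53 siRNA+nutlin replicate 1, 1 rose and 0 fell without CTR siRNA+nutlin replicate 1, 1 rose and 0 fell without CTR siRNA+nutlin replicate 2. Of 18 reference genes 7 rose (38.9%) and 0 fell (0%), beside 17.2% and 5.29% of all genes, and under median-ratio scaling 2 rose and 0 fell. HPRT1 had 65.7 and 55.9 FPKM with p53 siRNA+nutlin, against 31.2 and 23.6 FPKM with CTR siRNA+nutlin (1.13 ± 0.18, adjusted p = 0.00143) and ACTB 1462 and 1231 FPKM with p53 siRNA+nutlin, against 966 and 981 FPKM with CTR siRNA+nutlin (0.46 ± 0.14, adjusted p = 0.0396), while SDHA was at -0.041 ± 0.10, not called. ACTB was at an adjusted p of 0.222 without p53 siRNA+nutlin replicate 1, 0.158 without CTR siRNA+nutlin replicate 1 and 0.123 without CTR siRNA+nutlin replicate 2. Leaving out p53 siRNA+nutlin replicate 2, 7 rose and 0 fell, 4 rose and 0 fell without p53 siRNA+nutlin replicate 1, 3 rose and 0 fell without CTR siRNA+nutlin replicate 1, 3 rose and 0 fell without CTR siRNA+nutlin replicate 2.

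Replicate 2 of p53 siRNA+nutlin lay nearer to CTR siRNA+nutlin than replicate 1 did in most changed genes. Of the 1833 genes that rose 1312 (71.6%) were lower in replicate 2 than in replicate 1, beside 54.1% of all genes tested, and of the 564 that fell 351 (62.2%) were higher in replicate 2, beside 45.6%. These genes were called from the same libraries, so the counts describe the pair and test nothing. The lists show the gap by function. Replicate 2 was lower in 61 of 64 G2 and mitosis genes, with a median replicate difference of -0.41, in 54 of 55 replication genes (-0.63) and in most histone genes (-1.501). It was higher in 79 of 109 p53 targets, with a median of 0.23, and in 21 of 26 sterol genes (0.33). In the CTR siRNA+nutlin pair the same lists had medians of -0.031 for G2 and mitosis, -0.014 for replication and 0.026 for p53 targets. The cause of the gap was not tested.

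Taken alone against the mean of CTR siRNA+nutlin, replicate 1 gave a median difference of 3.52 for G2 and mitosis and -1.25 for p53 targets, and replicate 2 gave 3.08 and -1.09. All 64 mitotic genes lay above CTR siRNA+nutlin in each replicate. Among genes averaging at least 10 FPKM over the pair, histones again held most of the largest falls in replicate 2 relative to replicate 1. HIST1H4H had 25.1 and 3.04 FPKM, HIST1H4C 434 and 78.5 FPKM and HIST1H2BJ 113 and 20.1 FPKM in replicates 1 and 2 of p53 siRNA+nutlin. HIST2H2AA4 had 279.8 and 20.4 FPKM and its twin HIST2H2AA3 0 and 55.2 FPKM, 2 genes of near-identical sequence between which reads can be split, so both are uncertain. The clone gene CTC-429P9.4 had 53.4 and 0.219 FPKM. In the other direction AL034430.2 and GNG8, a G protein gamma subunit, were listed at 0 in replicate 1 and at 137 and 20.03 FPKM in replicate 2, the read-through gene SYNJ2BP-COX16 had 5.08 and 36.4 FPKM, and LEMD1 3.84 and 20.8 FPKM. Genes listed at 0 in 1 library of the pair may be failed estimates.

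**Figure D4:**
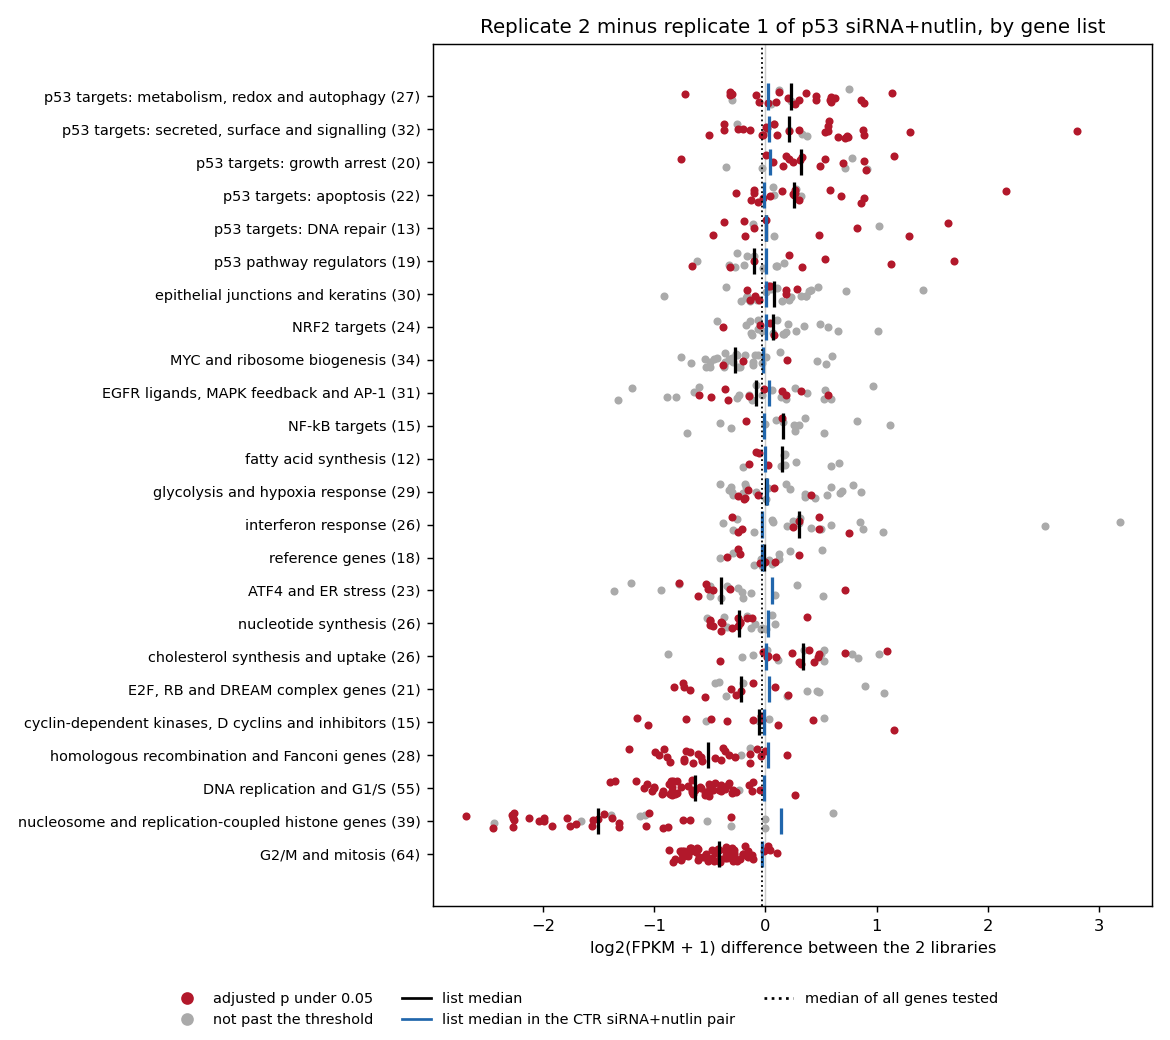
Difference in log2(FPKM + 1) between replicate 2 and replicate 1 of p53 siRNA+nutlin for each tested gene in 24 lists, with red for genes called in the comparison of groups, black bars for list medians, blue bars for list medians in the CTR siRNA+nutlin pair and a dotted line for the median of all genes. Histone, replication and mitosis lists lie left of 0, with medians of -1.501, -0.63 and -0.41, and most p53 target and sterol genes lie right of it, while the blue bars stay near 0.

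The p53 siRNA effect was not the same with and without nutlin. The difference between the p53 siRNA effect with nutlin and that without it, tested in the same fit as p53 siRNA+nutlin minus CTR siRNA+nutlin minus the same contrast of untreated groups, passed the threshold in 816 genes above 0 (7.65% of those tested) and 224 below (2.1%). These counts were 786 and 198 without p53 siRNA+nutlin replicate 2, and leaving out any other of the 8 libraries left 403 to 692 genes called in all, beside 1040 (9.75%). In all 2606 passed without the 3 libraries that stand apart, 1853 with library weights by group and 1 with close pairs counted once. Of the 64 G2 and mitosis genes 62 passed, all above 0. Of the 55 replication genes 49 passed above 0 and none below. PLK1 without nutlin had 79.2 and 77.2 FPKM with p53 siRNA, against 61.9 and 66.4 FPKM with CTR siRNA, and CDC20 had 140.1 and 148 FPKM with p53 siRNA, against 130.4 and 131 FPKM with CTR siRNA. Both genes were high in both untreated groups, as they were with p53 siRNA+nutlin, and of these 4 groups were low in CTR siRNA+nutlin alone. The median difference of the list was 0.22 without nutlin and 3.31 with it.

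Fewer p53 targets than mitotic genes passed. Of the 109 tested 33 passed below 0 and 4 above, GTSE1, KLF4 and POLK among them, and the median difference was -0.22 without nutlin and -1.18 with it. TP53I3 had 10.4 and 5.91 FPKM with p53 siRNA, against 6.75 and 8.44 FPKM with CTR siRNA without nutlin and CD82 4.30 and 3.83 FPKM with p53 siRNA, against 3.54 and 4.76 FPKM with CTR siRNA, so the untreated groups overlapped for both, and the difference between the effects was -4.80 ± 0.55 (SE, adjusted p = 0.00134) for TP53I3 and -3.54 ± 0.48 (adjusted p = 0.00241) for CD82. CDKN1A had 14.5 and 15.6 FPKM with p53 siRNA, against 70.7 and 72.7 FPKM with CTR siRNA, a difference of -2.18, with both p53 siRNA libraries below both CTR siRNA libraries (difference between effects -2.24 ± 0.54, adjusted p = 0.0258). For BTG2 (2.73 and 2.71 FPKM with p53 siRNA, against 7.56 and 7.49 FPKM with CTR siRNA without nutlin) and RRM2B (5.88 and 6.74 FPKM with p53 siRNA, against 19.4 and 14.9 FPKM with CTR siRNA) the difference between the effects did not pass (adjusted p = 0.176 and 0.531). Across all 10662 genes the differences with and without nutlin, which share no library, correlated at Pearson's r = 0.155, and at 0.359 over the 2397 genes called with nutlin. Genes are not independent replicates, and these values describe the libraries only.

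**Figure D5:**
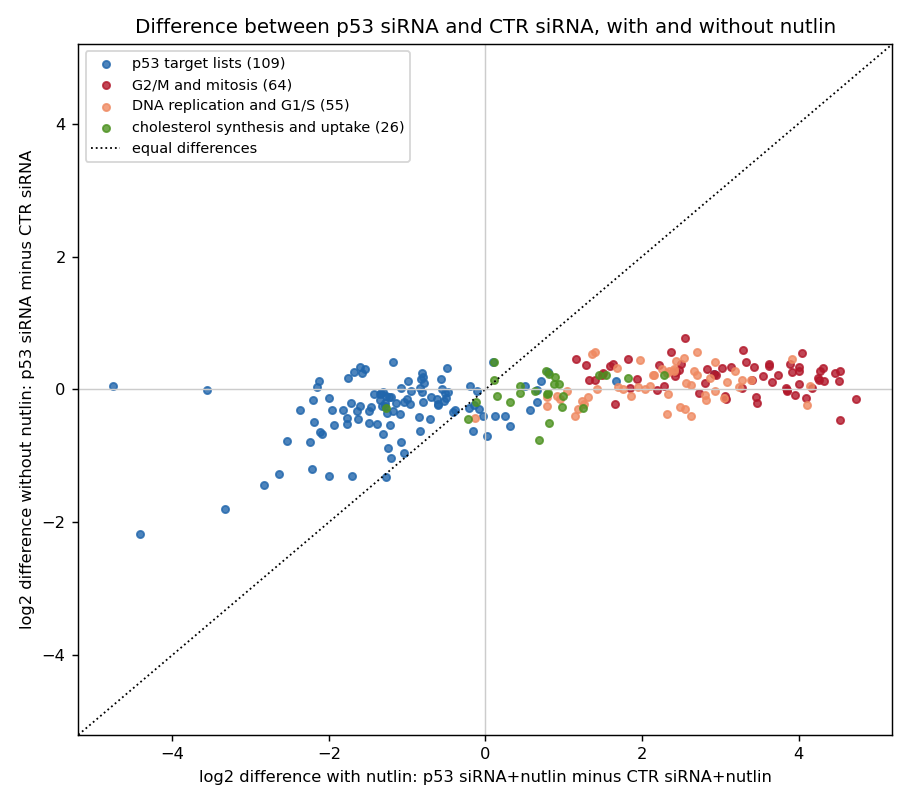
Difference in log2(FPKM + 1) between p53 siRNA and CTR siRNA with nutlin on the x axis and without nutlin on the y axis for members of 4 sets of lists, with a dotted line where both are equal. Mitosis and replication genes spread along the x axis near 0 on the y axis, and many p53 targets lie between the axis and the line, with CDKN1A lowest on the y axis, at -4.42 with nutlin and -2.18 without it.

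Against untreated CTR siRNA cells, in a comparison that uses the same p53 siRNA+nutlin libraries as the first, few genes passed. In that comparison 1 gene rose (0.00938% of those tested) and 0 fell, and 610 had an unadjusted p under 0.05. The 1 gene was FTH1, the ferritin heavy chain, with 7559.9 and 8606 FPKM with p53 siRNA+nutlin, against 5697 and 5429 FPKM with CTR siRNA, a difference of 0.54 ± 0.062 (SE, adjusted p = 0.0312). With CTR siRNA+nutlin FTH1 had 8504 and 8826 FPKM, which overlaps the p53 siRNA+nutlin values. Leaving out 1 library gave 4 calls without p53 siRNA+nutlin replicate 2, 1 without p53 siRNA+nutlin replicate 1, 0 without CTR siRNA replicate 1 and 2 without CTR siRNA replicate 2. Without the 3 libraries that stand apart 33 rose and 54 fell. The low count does not show that the groups were alike.

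By list, the medians of p53 siRNA+nutlin against untreated CTR siRNA were -0.19 for G2 and mitosis, with 55 of 64 genes lower, -0.40 for replication, with 55 of 55 lower, -0.90 for histones, with 36 of 39 lower, and 0.067 for p53 targets, with 47 of 109 lower, beside -0.024 for all genes. None of these genes passed. CDKN1A had 47.4 and 107 FPKM with p53 siRNA+nutlin, against 70.7 and 72.7 FPKM with CTR siRNA, and MDM2 12.3 and 28.2 FPKM with p53 siRNA+nutlin, against 13.4 and 13.3 FPKM with CTR siRNA. The p53 siRNA+nutlin libraries stood on either side of the CTR siRNA ones for both genes. RRM2 had 54.1 and 38.7 FPKM with p53 siRNA+nutlin, against 66.9 and 66.9 FPKM with CTR siRNA, and was lower in both libraries (adjusted p = 0.941).

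Where iASPP was silenced as well, the p53 siRNA effect with nutlin had the same direction in 2299 of the 2397 called genes (95.9%), beside 74.2% of all genes tested, in libraries that the first comparison did not use. The difference between the effects in cells with and without iASPP siRNA passed the threshold in 0 genes (0% of those tested) by limma, with 774 at an unadjusted p under 0.05. Leaving out 1 of the 8 libraries gave 0 to 99 calls, with 99 without iASPP siRNA+nutlin replicate 1, 22 without iASPP siRNA+nutlin replicate 2, 12 without p53+iASPP siRNA+nutlin replicate 2 and 0 without any of the others. Without the 3 libraries that stand apart 274 genes passed, 150 above 0 and 124 below. CDKN1A had 83.1 and 141 FPKM with p53+iASPP siRNA+nutlin, against 1656 and 776 FPKM with iASPP siRNA+nutlin, and MDM2 had 8.95 and 31.5 FPKM with p53+iASPP siRNA+nutlin, against 150.2 and 121 FPKM with iASPP siRNA+nutlin. PLK1 had 72.2 and 62.8 FPKM with p53+iASPP siRNA+nutlin, against 0.987 and 10.4 FPKM with iASPP siRNA+nutlin. In all 3 genes the groups stood apart there as well, and the iASPP siRNA+nutlin replicates differed more than the CTR siRNA+nutlin ones. The difference between the effects for CDKN1A was -1.04 ± 0.54 (SE, adjusted p = 0.700). The list medians were -0.98 with iASPP siRNA and -1.18 without it for p53 targets, and 2.54 and 3.31 for G2 and mitosis.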

How the data were processed

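The deposited FPKM of 20271 genes in 16 libraries were used as the authors made them, from mRNA bound to beads and Illumina libraries, per the labels' protocols. The submitters' processing notes name edgeR and the genome hg38 (GRCh38), with aligner, counter and annotation release not given in the sources used here. No counts were at hand. Depth ratios came from the steps of values under 1 FPKM. Symbols turned into dates (28) or missing (210) were filled from GENCODE release 29, whose positions on GRCh38 are given.

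The 10662 genes averaging 1 FPKM or more across the 16 libraries were tested on log2(FPKM + 1) with limma 3.58.1 in R 4.3.3, with 8 group means, an intensity trend, 8 residual and 3.15 prior degrees of freedom, and Benjamini-Hochberg adjustment within each of 4 comparisons. The added 1 FPKM understates changes of low genes. An exact test of 2 against 2 cannot go below p = 0.333 and was not used. The fit was run on simulated data that had the same spread in all groups. That check does not cover the unequal spread of these replicates, so it does not bear on the calls. Members of the comparison, gene lists and tests were chosen with earlier results of these data known. There were 28 lists from textbook knowledge, 4 of them cell type markers read for level only. Genes named are MDM2, CDKN1A and PPP1R13L, the 10 largest rises and falls with libraries that did not overlap, and from each list the 6 called members with the largest change, those called against the list median and the 3 with the smallest change. From the other comparisons the 5 largest on each side were taken, and likewise from the replicates. That makes 229 genes, of which most are printed and some are not reported here. AEN was named after its values were seen. Promoters were matched by RefSeq symbol or synonym. Alternatives were another pseudocount, no filter, median-ratio scaling, the replicate block, own groups only, library weights, leaving out libraries, and close pairs counted once. Same-numbered replicates were not treated as pairs.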

Additional observations from a re-analysis of the deposited data

Results flagged for a closer look

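The p53 siRNA effect differed between nutlin-treated and untreated cells, by the test of the difference itself in the limma fit, in 1040 genes. The difference between the effects, on the log2 scale, was -4.80 for TP53I3 and -3.54 for CD82, which were among the 5 furthest below 0. The other 3 were LCE1F, LCE1C and LCN15, at adjusted p of 0.0165, 0.0256 and 0.00628. Each was listed at 0 in both libraries of at least 1 of the 4 groups, so no size is given. LCE1F and LCN15 were listed at 0 in every library of p53 siRNA+nutlin, p53 siRNA and CTR siRNA.

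Among the 5 furthest above 0 were HIST1H2BO at 5.70, HIST1H4A at 5.41 and HMGB2 at 4.99. The other 2, RP11-134F2.8 and SYCE3, at adjusted p of 0.0412 and 0.0219, are also given without a size. RP11-134F2.8 was listed at 0 in all libraries of p53 siRNA+nutlin, CTR siRNA+nutlin and p53 siRNA, against 48.1 and 42.5 FPKM with CTR siRNA. SYCE3, of the meiotic synaptonemal complex, had 7.04 and 6.17 FPKM with p53 siRNA+nutlin and was listed at 0 in all libraries of CTR siRNA+nutlin and p53 siRNA, against 8.33 and 1.70 FPKM with CTR siRNA. HMGB2 had 282 and 185 FPKM with p53 siRNA+nutlin, against 8.73 and 9.17 FPKM with CTR siRNA+nutlin, and 216 and 209 FPKM with p53 siRNA, against 295 and 291 FPKM with CTR siRNA.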

How the results depend on the processing

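Of the alternatives tried on p53 siRNA+nutlin against CTR siRNA+nutlin, beside 2397 genes called, fitting the own groups only gave 1383 and counting close pairs once gave 1, while leaving out 1 library gave 1096 to 2159. Of the 229 named genes none of those called changed direction, while 26 uncalled ones did under median-ratio scaling, 4 to 21 with 1 library left out, 15 without the 3 libraries that stand apart and 3 with close pairs once. For the difference between the p53 siRNA effects with and without nutlin, beside 1040, library weights by group gave 1853, leaving out the 3 libraries that stand apart gave 2606, counting close pairs once gave 1 and leaving out 1 library gave 403 to 984. For p53 siRNA+nutlin against CTR siRNA, beside 1, median-ratio scaling gave 0, own groups only 2, leaving out the 3 libraries 87, close pairs once 3, and leaving out 1 library 0 to 4. For the difference from the effect in iASPP siRNA cells, beside 0, a pseudocount of 0.1 gave 1, leaving out the 3 libraries 274, close pairs once 1, and leaving out 1 library 0 to 99. The cause was not tested. Samples were not paired by replicate number. The correlation of replicate differences was -0.00713 between p53 siRNA+nutlin and CTR siRNA+nutlin and over 0.1 in 3 of 28 pairs of groups. The highest was 0.304, between p53 siRNA+nutlin and p53+iASPP siRNA+nutlin, so some of the replicate gap was shared by these groups. The fit with the replicate block gave 2414, 1049, 0 and 0 genes in the 4 comparisons. Among the named genes, calls were lost for 154 with close pairs once, 44 with own groups only, 20 under scaling and 46, 37, 42 and 13 without CTR siRNA+nutlin replicate 1, CTR siRNA+nutlin replicate 2, p53 siRNA+nutlin replicate 1 and p53 siRNA+nutlin replicate 2. Leaving out the 3 libraries raised the count in the first comparison too, but it also took the widest replicate gaps out of the spread. Its higher counts therefore do not show that more genes changed. Precision is limited by 2 libraries per group and, for low genes, by the shallower replicate 1.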
